A study of Homo sapiens with 12 samples.

Results

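The transcription factor NRF2 (gene NFE2L2), its inhibitor KEAP1 and 7 of its antioxidant targets were followed in all 12 RNA-seq libraries of epirubicin-resistant and parental breast cancer cells. The targets were NQO1, HMOX1, GCLC, GCLM, SLC7A11, TXNRD1 and SRXN1. These 9 genes were taken by symbol from a list of NRF2 genes, out of 58735 genes in each of 2 tables. The list uses no measured value, but it was chosen with earlier results of these data known. SK-BR-3 is an established HER2-amplified human breast cancer cell line. SK/EPI is a line derived from it by prolonged exposure to epirubicin, an anthracycline, in stepwise rising concentrations, and the labels describe it as a cell line without giving the number of clones. The 4 groups of 3 libraries were untreated SK-BR-3, untreated SK/EPI, SK/EPI-siBCRP, which is SK/EPI with BCRP silenced by siRNA, and SK/EPI-siControl, which received a control siRNA. Both transfected groups received Lipofectamine RNAiMax and carried the resistant background, and RNA was taken 48 h later. BCRP, the product of ABCG2, is an ATP-binding cassette drug efflux pump.

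NRF2 is a basic leucine zipper factor that switches on genes of glutathione synthesis, thiol reduction and detoxification when cells meet oxidants or electrophiles. KEAP1 holds NRF2 in the cytoplasm and hands it to the CUL3 ubiquitin ligase, so that in unstressed cells NRF2 is degraded and its amount is set largely at the protein level. Once released, NRF2 pairs with small MAF proteins on the antioxidant response element (ARE) of its targets, while BACH1 competes for the same element, most clearly at HMOX1. NRF2 activity is known for its association with resistance of tumour cells to anthracyclines and other oxidising drugs.

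The ARE core, written TGACNNNGC and read on both strands, was searched in the promoters of the members, since it is the element through which NRF2 acts on its targets. Promoter windows of 300 bases (250 before and 50 after a transcription start) came from RefSeq on GRCh38.p14. Windows were available for 7 of the 9 members. HMOX1 and SLC7A11 had no window and were not searched. Of 10 windows for these 7 genes, 4 windows of 3 genes held the core. Among all 35116 windows of the same length 13.3% held it. The stricter form TGACTCAGC, which is one spelling of the core, stood in 0.561% of all windows and in no member's window. The 4 windows are printed on the strand of their gene, 5′ to 3′, with the matches in capitals.
KEAP1 chr19:10502722-10503021, minus strand: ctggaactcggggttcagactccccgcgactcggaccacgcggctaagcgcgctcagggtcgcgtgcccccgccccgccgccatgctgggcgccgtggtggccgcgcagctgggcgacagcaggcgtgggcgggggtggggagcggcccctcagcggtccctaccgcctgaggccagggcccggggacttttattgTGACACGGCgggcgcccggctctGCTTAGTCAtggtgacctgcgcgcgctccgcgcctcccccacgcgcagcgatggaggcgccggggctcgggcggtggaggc
GCLM chr1:93909381-93909680, minus strand: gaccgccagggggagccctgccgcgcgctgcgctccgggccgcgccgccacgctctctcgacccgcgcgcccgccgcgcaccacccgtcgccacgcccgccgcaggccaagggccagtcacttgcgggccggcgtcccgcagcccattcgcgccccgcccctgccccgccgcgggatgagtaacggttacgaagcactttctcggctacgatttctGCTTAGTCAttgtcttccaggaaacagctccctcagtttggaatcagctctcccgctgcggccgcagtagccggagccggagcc
TXNRD1 chr12:104215529-104215828, plus strand: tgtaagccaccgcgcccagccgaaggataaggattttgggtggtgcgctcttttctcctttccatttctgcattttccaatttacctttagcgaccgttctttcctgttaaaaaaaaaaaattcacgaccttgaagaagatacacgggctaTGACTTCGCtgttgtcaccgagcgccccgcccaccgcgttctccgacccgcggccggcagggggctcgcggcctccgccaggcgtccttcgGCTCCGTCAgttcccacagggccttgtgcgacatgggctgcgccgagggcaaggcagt
TXNRD1 chr12:104286782-104287081, plus strand: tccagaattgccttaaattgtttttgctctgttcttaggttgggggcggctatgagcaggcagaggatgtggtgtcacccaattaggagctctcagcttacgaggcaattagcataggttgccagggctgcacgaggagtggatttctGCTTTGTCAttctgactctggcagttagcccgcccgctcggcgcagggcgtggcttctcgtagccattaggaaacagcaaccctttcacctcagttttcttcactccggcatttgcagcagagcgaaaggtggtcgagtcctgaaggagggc
The KEAP1 window held TGACACGGC, starting 54 bases before the start, and GCTTAGTCA, which is the core on the opposite strand, starting 31 bases before it. GCLM held the same opposite-strand letters, GCTTAGTCA, starting 34 bases before its start. In the first TXNRD1 window TGACTTCGC began 99 bases and GCTCCGTCA 8 bases before the start, and in the second GCTTTGTCA began 102 bases before it. A match describes letters only, and the windows without one leave out more distant enhancers.

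Each library had 15830381 to 20545811 reads on genes, recovered from the steps of the FPKM values. Depth differed within groups, from 15830381 to 19051182 reads in SK-BR-3 and from 17078952 to 20545811 in SK/EPI-siControl. The line was checked against markers. ERBB2, GRB7, EPCAM and the keratins KRT8, KRT18 and KRT19 lay between 43.6 and 1719 FPKM in the 12 libraries. PTPRC, CD3E, PECAM1 and COL1A1, which mark blood, endothelial and fibroblast cells, lay between 0 and 1.60 FPKM. ERBB2 itself, the amplified receptor gene of the line, was at 652 to 662 FPKM in SK-BR-3 and 128 to 136 FPKM in SK/EPI. After BCRP silencing all 6 line markers were called lower, with log2 fold changes of -0.49 to -0.06. Mitochondrial genes took 4.18% to 4.23% of reads in SK-BR-3, 5.10% to 5.38% in SK/EPI and 3.58% to 3.84% in the transfected groups. With the mitochondrial chromosome left out, the 8 members called in SK/EPI versus SK-BR-3 kept their calls, among them NFE2L2 at a log2 fold change of 0.65 and HMOX1 at 2.14. After silencing NQO1 was then called as well (-0.064). The part of the marker shifts in the members' values was not tested. The silenced gene itself, ABCG2, was at 32.5, 32.7 and 33.7 FPKM in SK/EPI-siControl and at 2.84, 3.47 and 2.91 FPKM in SK/EPI-siBCRP. The labels do not say whether the libraries of a group came from separate cultures, so the p-values measure the spread between these libraries, which may be technical. In bulk RNA, fewer cells of a type and less RNA per cell cannot be told apart.

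First, the members were compared between SK/EPI and SK-BR-3 to ask how the NRF2 pathway stands in the resistant line. The NRF2 targets went in opposite directions. HMOX1 was 4.83-fold higher in the resistant cells, and SLC7A11, NFE2L2, KEAP1 and GCLM were also upregulated, whereas NQO1, GCLC and SRXN1 were downregulated and TXNRD1 was not called. With limma on log2(FPKM + 1) and an adjusted p under 0.05, 5 of the 9 members were upregulated and 3 downregulated. Over all 15823 genes tested the shares were 37.9% upregulated and 37% downregulated, so 8 called genes of 9 stands beside a comparison in which most genes were called. The 3 SK/EPI values did not overlap the 3 SK-BR-3 values for 8 of the 9 members, against 77.7% of all genes. The median log2 fold change was 0.25 for the members and 0.0084 for all genes tested. A called change that was also 1 or more in size on the log2(FPKM + 1) scale was found in 14.4% of all genes and in 1 member, HMOX1. SLC7A11 missed this cut at 0.76, although the ratio of its mean FPKM was 2.95, since the scale understates the change of so low a gene.

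**Figure D1:**
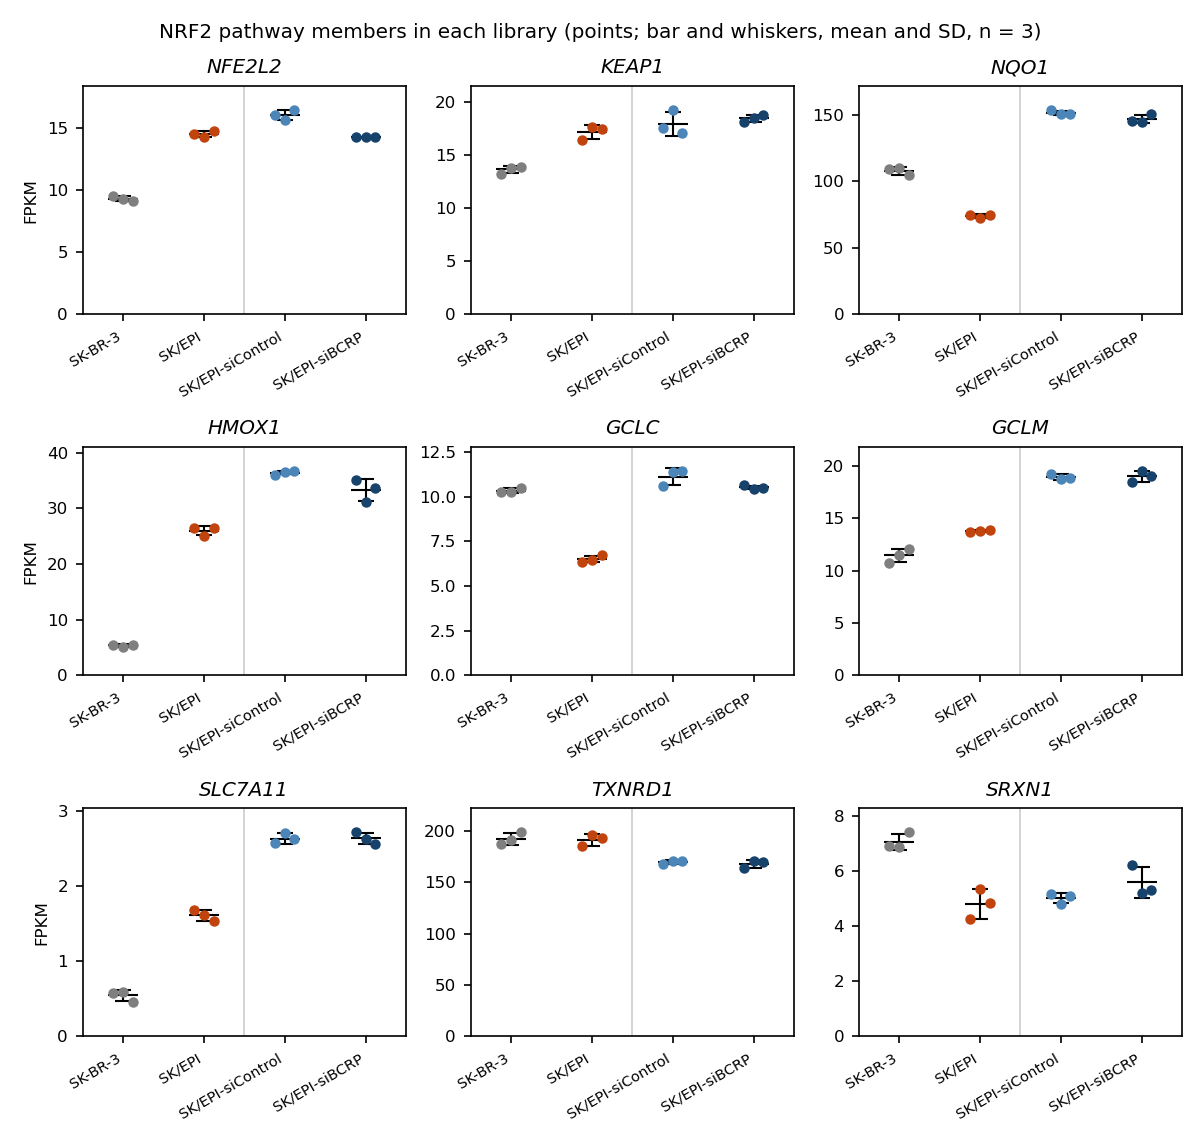
Level of each member in FPKM (vertical axes, starting at 0) in the 3 libraries of each of the 4 groups, with the mean and SD (n = 3). The grey line separates the 2 tables. HMOX1 rises from 5.13 to 5.53 FPKM in SK-BR-3 to 25.1 to 26.5 FPKM in SK/EPI, while NQO1 and GCLC have their lowest level in SK/EPI, with no test across the 2 tables.

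Among the regulators, both NFE2L2 and KEAP1 were higher in SK/EPI. NFE2L2 (ENSG00000116044, chr2:177227595-177392697, minus strand, positions from GENCODE 29 on GRCh38 as for the genes that follow) encodes NRF2 itself. Its level was 9.54, 9.29 and 9.13 FPKM in the SK-BR-3 libraries and 14.5, 14.3 and 14.8 FPKM in the SK/EPI libraries. All 3 resistant libraries lay above all 3 parental ones, and the log2 fold change was 0.59 ± 0.03 (SE, n = 3 per group, limma adjusted p = 1.7e-06), a 1.56-fold ratio of mean FPKM. KEAP1 (ENSG00000079999, chr19:10486120-10503741, minus strand), the adaptor that targets NRF2 for degradation, was at 13.2, 13.8 and 13.9 FPKM in SK-BR-3 and at 16.4, 17.6 and 17.4 FPKM in SK/EPI. It rose by a smaller step, with a log2 fold change of 0.31 ± 0.04 (limma adjusted p = 1.8e-04). Of the exonic bases of NFE2L2, 17.6% are shared with AC019080.1 on the same strand, a gene with 0 to 23 reads per library.

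The quinone reductase and the heme oxygenase moved apart. NQO1 (ENSG00000181019, chr16:69706996-69726951, minus strand) reduces quinones by 2 electrons and is a standard readout of NRF2. Its level was 109, 110.1 and 105 FPKM in SK-BR-3 and 74.6, 72.7 and 75.0 FPKM in SK/EPI. The groups did not overlap, and NQO1 had a log2 fold change of -0.54 ± 0.03 (limma adjusted p = 2.0e-06), a fall in mean FPKM to 0.686 of the parental level. HMOX1 (ENSG00000100292, chr22:35380361-35394214, plus strand), the inducible enzyme that opens heme into biliverdin, iron and carbon monoxide, had the largest change of the 9. It stood at 5.53, 5.13 and 5.50 FPKM in SK-BR-3 and at 26.5, 25.1 and 26.5 FPKM in SK/EPI. Every resistant library was several times above every parental one, with a log2 fold change of 2.08 ± 0.04 (limma adjusted p = 4.8e-09), and 3.74% of all genes tested had a larger absolute change.

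The glutathione genes were split as well, including the subunits of one enzyme. GCLC and GCLM are the catalytic and the modifier subunit of glutamate-cysteine ligase, the rate-limiting enzyme of glutathione synthesis. GCLC (ENSG00000001084, chr6:53497341-53616970, minus strand) was at 10.3, 10.3 and 10.5 FPKM in SK-BR-3 and at 6.37, 6.48 and 6.72 FPKM in SK/EPI. It fell, with a log2 fold change of -0.59 ± 0.04 (limma adjusted p = 3.2e-06). GCLM (ENSG00000023909, chr1:93885205-93909456, minus strand) was at 10.8, 11.5 and 12.1 FPKM in SK-BR-3 and at 13.7, 13.8 and 13.8 FPKM in SK/EPI. It rose slightly, by 0.25 ± 0.04 on the log2 scale (limma adjusted p = 0.0012). The mean levels of the pair were therefore 10.3 and 11.4 FPKM in parental cells and 6.52 and 13.8 FPKM in resistant cells, for GCLC and GCLM in that order. SLC7A11 (ENSG00000151012, chr4:138164097-138242349, minus strand), the cystine importer that supplies cysteine for glutathione, was at 0.581, 0.597 and 0.463 FPKM in SK-BR-3 and at 1.68, 1.62 and 1.53 FPKM in SK/EPI. These values rest on 85 to 104 reads per parental and 277 to 318 reads per resistant library. SLC7A11 rose by 0.76 ± 0.06 (limma adjusted p = 7.0e-06) on the log2(FPKM + 1) scale, which understates the change of so low a gene. The ratio of its mean FPKM was 2.95, and its log2 fold change was 1.41 with a pseudocount of 0.1 FPKM and 1.66 with voom on the recovered reads.

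In the thioredoxin branch SRXN1 fell and TXNRD1 was not called, except with voom. TXNRD1 (ENSG00000198431, chr12:104215779-104350305, plus strand), the cytosolic reductase that recycles thioredoxin, was at 187, 191 and 198 FPKM in SK-BR-3 and at 185, 196 and 193 FPKM in SK/EPI. The groups overlapped, and the log2 fold change of -0.0050 ± 0.04 had a 95% interval of -0.10 to 0.09 (limma adjusted p = 0.916). With voom on the recovered reads TXNRD1 was called higher, by 0.080 (limma adjusted p = 0.011), where the median of all genes was 0.10. SRXN1 (ENSG00000271303, chr20:646615-653370, minus strand), sulfiredoxin, restores overoxidised peroxiredoxins. Its level was 6.94, 6.87 and 7.41 FPKM in SK-BR-3 and 4.27, 5.35 and 4.85 FPKM in SK/EPI. All resistant libraries lay below the parental ones, with a log2 fold change of -0.47 ± 0.07 (limma adjusted p = 4.9e-04). The annotation gives 85.0% of the exonic bases of SRXN1 to AL121758.1 on the same strand as well, and that gene had 0 to 7 reads per library. Reads in shared bases may have been given to neither gene, so the level of SRXN1 is uncertain.

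**Figure D2:**
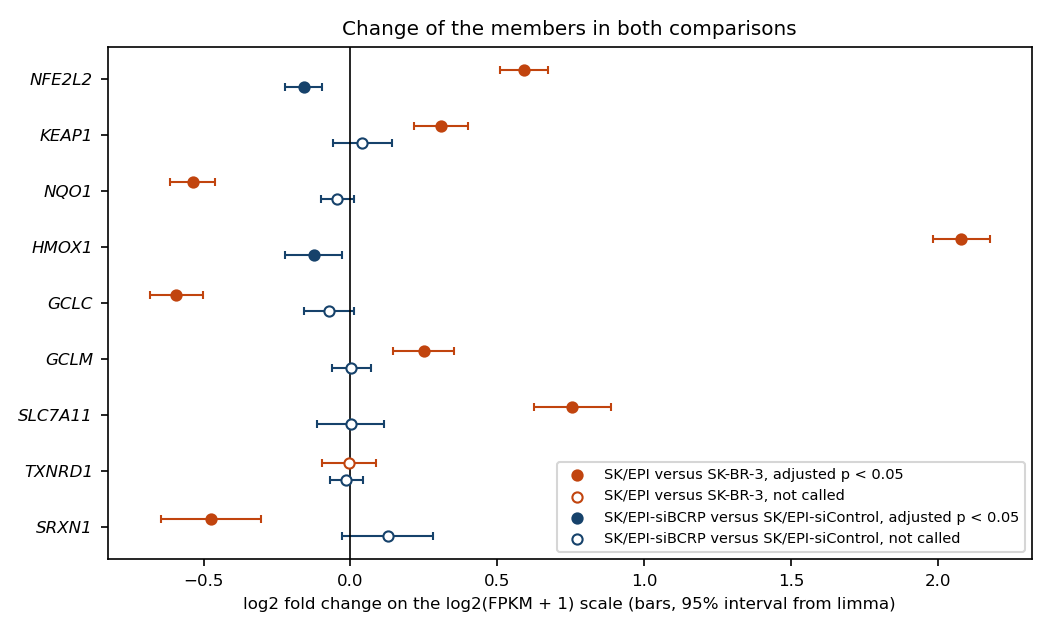
Log2 fold change of each member on the log2(FPKM + 1) scale (horizontal axis) with its 95% interval from limma, for SK/EPI versus SK-BR-3 and for SK/EPI-siBCRP versus SK/EPI-siControl. Filled points passed an adjusted p of 0.05. Resistant cells show members on both sides of 0, from -0.59 for GCLC to 2.08 for HMOX1, and silencing leaves all 9 members between -0.16 and 0.13.

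Next, the same genes were compared between the silenced and the control-transfected libraries to ask whether the pathway changes when BCRP is silenced in resistant cells. The members changed little. The mean FPKM of NFE2L2 fell by 11.1%, that of HMOX1 fell by 8.45%, and the other 7 members were not called. Thus 0 of the 9 were upregulated and 2 downregulated by limma at an adjusted p under 0.05, against 19.4% and 18.7% of the 16298 genes tested. At an unadjusted p under 0.05 the count of upregulated members was also 0, and with voom it was 0. The groups did not overlap for 3 members, NFE2L2, HMOX1 and SRXN1, against 50.9% of all genes. The median log2 fold change was -0.014 for the members and -0.0036 for all genes tested.

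NFE2L2 was at 16.1, 15.6 and 16.4 FPKM in SK/EPI-siControl and at 14.2, 14.3 and 14.2 FPKM in SK/EPI-siBCRP. The silenced libraries lay close together and below every control library, with a log2 fold change of -0.16 ± 0.03 (limma adjusted p = 0.0034). HMOX1 was at 36.1, 36.6 and 36.6 FPKM in the controls and at 35.2, 31.2 and 33.7 FPKM after silencing. Its log2 fold change was -0.13 ± 0.04 and passed the threshold narrowly (limma adjusted p = 0.0475). Over the alternatives run, the limma adjusted p of HMOX1 ranged from 0.0059 to 0.138, and the call was lost without SK/EPI-siBCRP replicate 2 (0.0782) or 3 (0.0833) and without SK/EPI-siControl replicate 1 (0.0828), 2 (0.110) or 3 (0.110). Its log2 fold change was -0.080 without SK/EPI-siBCRP replicate 2 and -0.12 to -0.13 in the other 4 of these fits.

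For the members that were not called, the intervals bound how large a difference these libraries allow. NQO1 was at 153, 151 and 151 FPKM in SK/EPI-siControl and at 146, 145 and 151 FPKM in SK/EPI-siBCRP. Its log2 fold change of -0.044 had a 95% interval of -0.10 to 0.01 (limma adjusted p = 0.178). With every library set to the same FPKM total, NQO1 was called lower (-0.077, limma adjusted p = 0.0206). GCLC was at 10.6, 11.4 and 11.4 FPKM in the controls and at 10.6, 10.5 and 10.5 FPKM after silencing, with an interval of -0.16 to 0.01 around -0.074 (limma adjusted p = 0.152). It was called only without SK/EPI-siControl replicate 1, the lowest control (limma adjusted p = 0.04996). GCLM and SLC7A11 differed by less than the spread between libraries, with means of 18.9 and 2.64 FPKM in the controls and 19.0 and 2.64 FPKM after silencing. Their log2 fold changes were 0.0035 (95% interval -0.06 to 0.07) and 0.0016 (-0.11 to 0.12). KEAP1 and TXNRD1 had log2 fold changes of 0.041 (-0.06 to 0.14) and -0.014 (-0.07 to 0.04). SRXN1 was at 5.18, 4.81 and 5.10 FPKM in the controls and at 6.25, 5.22 and 5.33 FPKM after silencing, with a log2 fold change of 0.13 ± 0.07 that did not pass (limma adjusted p = 0.175). Without SK/EPI-siBCRP replicate 1, the highest library, it was 0.058.

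**Figure D3:**
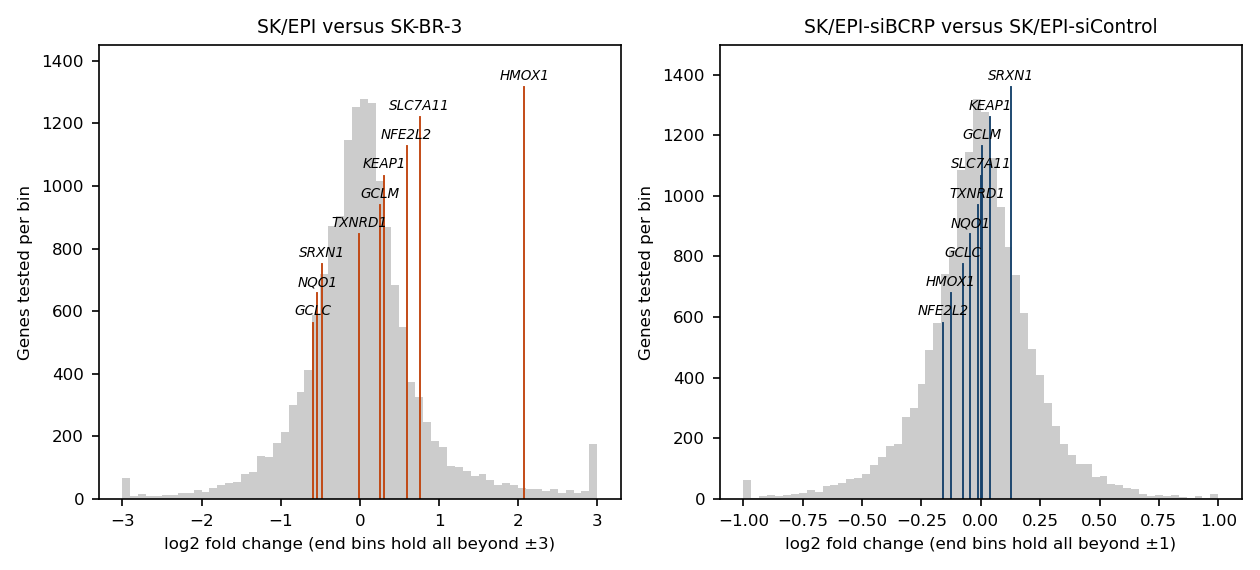
Number of genes tested (vertical axes) by log2 fold change (horizontal axes) in each comparison, with a labelled line for each member. The end bins hold all genes beyond the axis limits. In SK/EPI versus SK-BR-3, HMOX1 lies in the upper tail and the other members in the body of the distribution, and after BCRP silencing all 9 lie near the centre.

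FPKM are per length, so levels can be set between genes. TXNRD1 had the highest and NQO1 the second highest mean level of the 9 in every group, and SLC7A11 the lowest. In SK-BR-3 the order ran TXNRD1, NQO1, KEAP1, GCLM, GCLC, NFE2L2, SRXN1, HMOX1 and SLC7A11. No neighbours in that order overlapped in their 3 libraries. The place of SRXN1 is uncertain in every group, since 85.0% of its exonic bases are shared with AL121758.1 on the same strand. HMOX1 stood eighth in SK-BR-3 and in the third place in SK/EPI and in both transfected groups. Below it in SK/EPI came KEAP1, NFE2L2, GCLM, GCLC and SRXN1. In SK/EPI-siControl and SK/EPI-siBCRP the order was the same as each other, with GCLM above KEAP1, and GCLM and KEAP1 were the neighbours whose libraries overlapped. TXNRD1 exceeded the mean level of 99.1% of genes tested in SK-BR-3, whereas SLC7A11 exceeded 20.1%.

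The level of several targets also differed between untreated SK/EPI and SK/EPI-siControl. These groups stand in separate tables, so their values are given side by side without a test, and table and transfection cannot be told apart. The mean of NQO1 was 74.1 FPKM in SK/EPI and 151.6 FPKM in SK/EPI-siControl, a ratio of 2.05. The ratio was 1.71 for GCLC, 1.64 for SLC7A11, 1.40 for HMOX1 and 1.37 for GCLM. NFE2L2, KEAP1 and SRXN1 had ratios of 1.10, 1.05 and 1.04, and TXNRD1 had 0.886. Over the 11663 genes whose mean reached 1 FPKM in each of these groups, the median ratio was 1.02 and the quartiles were 0.868 and 1.20. A ratio above that of NQO1 was found in 2.22% of these genes, above that of GCLC in 4.72% and above that of SLC7A11 in 5.78%. When every library was set to the same FPKM total, NQO1 had a ratio of 2.28 and TXNRD1 of 0.989. Beside these, the SK-BR-3 means were 108 FPKM for NQO1 and 10.3 FPKM for GCLC. Of the 3 members called lower in SK/EPI than in SK-BR-3, NQO1 and GCLC were at 151.6 and 11.1 FPKM in SK/EPI-siControl. The third, SRXN1, had means of 7.08 FPKM in SK-BR-3, 4.83 FPKM in SK/EPI and 5.03 FPKM in SK/EPI-siControl.

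The other genes of the pathway were counted in 8 lists of 75 genes, of which 73 were tested. These lists, too, were chosen with earlier results of these data known. In SK/EPI versus SK-BR-3, 8 of the 73 reached 10 reads, scaled to the median depth, in all 3 libraries of 1 group alone. They were tested only through the group where they were higher, so they are left out of the counts and medians of that comparison. Of the other 65 genes 24 were upregulated and 35 downregulated. Over all genes tested the shares were 37.9% and 37%, and this background keeps genes that passed through 1 group alone. With the 8 kept as well, 29 of the 73 were upregulated and 37 downregulated. Of the 11 NRF2 partners, competitors and degradation genes, 3 were upregulated and 6 downregulated, with a median log2 fold change of -0.15. SQSTM1, the autophagy receptor p62 that binds KEAP1, rose from 40.7 to 44.6 FPKM to 64.2 to 67.5 FPKM (0.64), and the kinase gene GSK3B rose by 0.52. MAFF, a small MAF partner, and RBX1, a subunit of the CUL3 ligase, had log2 fold changes of -0.44 and -0.38. Of 7 other glutathione genes, 2 rose and 5 fell (median -0.56). Glutathione synthetase GSS went from 13.0 to 27.4 FPKM on average (1.02) and glutaredoxin GLRX from 2.33 to 6.97 FPKM (1.26). GGT1, which cleaves extracellular glutathione, went from 7.15 to 0.365 FPKM (-2.58), a 19.6-fold fall in mean FPKM. The log2 fold changes of the lists are on the log2(FPKM + 1) scale, which understates changes of genes at low FPKM. The glutathione peroxidase GPX2, one of the 8 genes left out, went from 5.61 to 0.400 FPKM, with 9 to 14 reads per SK/EPI library.

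Of 10 other thioredoxin and peroxiredoxin genes, 3 rose and 6 fell (median -0.39). TXNIP, the thioredoxin-binding inhibitor, rose from 18.0 to 20.0 FPKM to 59.7 to 64.3 FPKM (1.66), and PRDX6 had a log2 fold change of 1.01. The mitochondrial PRDX3 and TXN2 had log2 fold changes of -1.10 and -1.09. The 6 NADPH supply genes gave 1 rise and 5 falls (median -0.48). IDH1 went from 15.7 to 41.5 FPKM on average (1.35), and the pentose phosphate enzyme TALDO1 had a log2 fold change of -0.61. Among 3 superoxide dismutase and catalase genes SOD2, the mitochondrial enzyme, rose by 1.38, and SOD1 and CAT fell. The level of SOD2 is uncertain, since it has identifiers that overlap in position. SOD3, left out of the count, was at 2.10 FPKM in SK-BR-3 and 0.330 FPKM in SK/EPI on average, with 5 to 20 reads per SK/EPI library.

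Heme and iron genes around HMOX1 were tested in a list of 9, of which 3 rose and 5 fell (median -0.16). The ferritin chains that store iron were the largest rises. FTL went from 77.1 to 91.5 FPKM in SK-BR-3 to 454 to 491 FPKM in SK/EPI (2.49) and FTH1 from 125 to 148 FPKM to 424 to 445 FPKM (1.69). The biliverdin reductases, which act after heme oxygenase, had the largest falls, with BLVRA at 25.0 to 27.2 FPKM in SK-BR-3 and 3.47 to 4.04 FPKM in SK/EPI (-2.49) and BLVRB at a log2 fold change of -1.06. FTH1 shares 62.4% of its exonic bases with BEST1 on the opposite strand, and BEST1 had 2 to 66 reads per library. Of 12 detoxification targets of NRF2, 5 rose and 6 fell (median -0.080). The other 5 tested genes of that list, AKR1B10, AKR1C1, AKR1C2, AKR1C3 and CYP4F11, reached the filter through SK/EPI. The aldo-keto reductase AKR1B10 went from 0.222 to 0.397 FPKM, or 7 to 12 reads, in SK-BR-3 to 178 to 188 FPKM in SK/EPI. The cytochrome CYP4F11, with 0 to 4 reads per SK-BR-3 library, was at 3.31 to 3.74 FPKM in SK/EPI. The epoxide hydrolase EPHX1 and the carbonyl reductase CBR3 had log2 fold changes of -1.29 and -1.19, and CBR3 shares 42.2% of its exonic bases with CBR3-AS1. AKR1C2 and AKR1C3, singled out after their values were seen, had 0 to 2 reads per SK-BR-3 library. With 3 reads per SK-BR-3 library as the floor, their means in SK/EPI were at least 4.78-fold and 5.37-fold higher. AKR1C1 and AKR1C2 are near-identical copies whose reads can be split between them, so both levels are uncertain.

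SLC7A11 is also a target of ATF4, the factor of the amino acid response. In the list of ATF4 and its targets 7 genes were counted, with ASNS left out, and 6 of them were upregulated and 0 downregulated in SK/EPI by limma, with a median of 0.16. The remaining gene, SESN2, had a log2 fold change of -0.15 with no overlap between the groups and was not called (limma adjusted p = 0.067). At an unadjusted p under 0.05, and with voom, 0 were called lower. DDIT3, which encodes CHOP, rose from 2.31 to 3.18 FPKM to 9.65 to 9.84 FPKM (1.51), and CHAC1, which degrades glutathione, from 0.434 to 0.643 FPKM to 0.804 to 1.34 FPKM (0.44). DDIT3 shares 27.2% of its exonic bases with MARS on the opposite strand and 8.03% with AC022506.1 on the same strand, so its level is uncertain. Without SK/EPI replicate 2 the calls of TRIB3, PSAT1 and PHGDH were lost, which left 3 of the 6, and 37.9% of all genes tested were upregulated in this comparison.

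**Figure D4:**
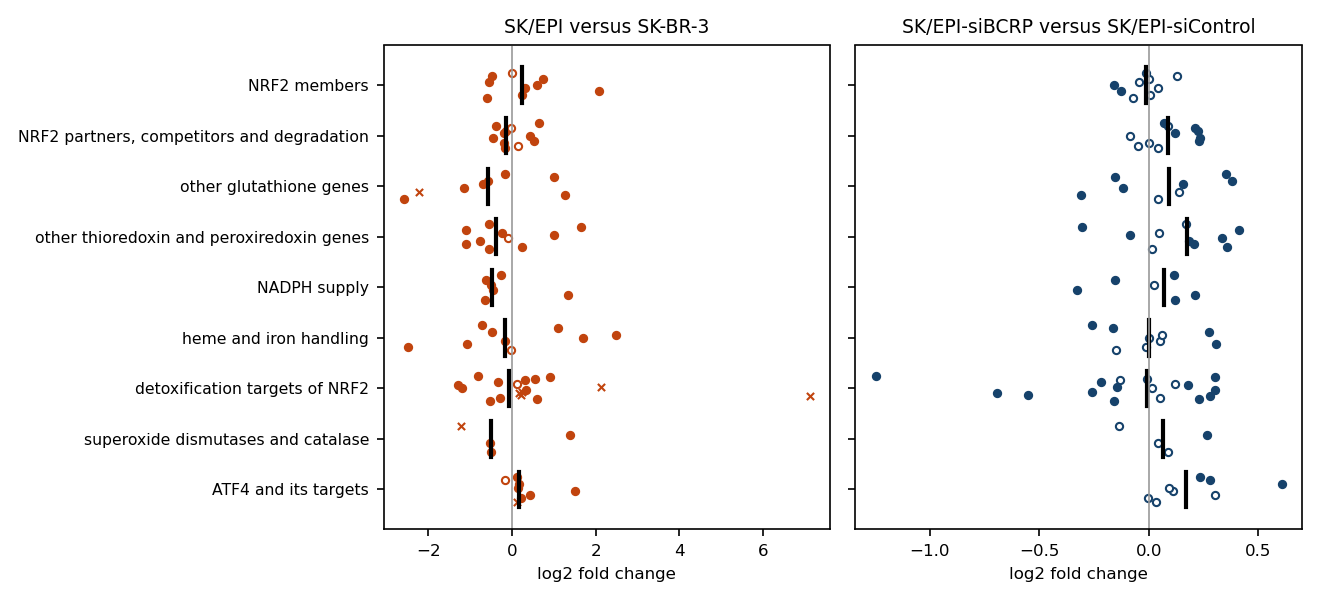
Log2 fold change (horizontal axes, with different ranges) of the 9 members and of the tested genes of 8 pathway lists in each comparison. Each point is a gene, filled where its adjusted p was under 0.05, and the black bar is the median of the list. Crosses mark 8 genes that reached 10 scaled reads in all 3 libraries of 1 group alone and are left out of the medians. In SK/EPI versus SK-BR-3 the medians run from -0.56 for other glutathione genes to 0.25 for the members.

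After BCRP silencing 44 of the 73 tested genes were called, 28 upregulated and 16 downregulated, where 19.4% and 18.7% of all genes tested were. Of the 11 partner, competitor and degradation genes, 6 rose and 0 fell by limma (median 0.09), with MAFF and GSK3B each up by 0.23. At an unadjusted p under 0.05, and with voom, 1 of these 11 was lower. Of 8 other glutathione genes, 3 rose and 3 fell (median 0.09). Glutathione reductase GSR rose from 24.5 to 25.8 FPKM to 32.2 to 34.1 FPKM (0.38), and SLC3A2, the partner chain of SLC7A11 in the cystine importer, rose by 0.35. GLRX and GSS had log2 fold changes of -0.31 and -0.15. In the thioredoxin and peroxiredoxin list 5 of 10 rose and 2 fell (median 0.18), with TXN2 at 0.41, PRDX2 at 0.36, TXNIP at -0.30 and PRDX6 at -0.09. The call of PRDX6, an antioxidant enzyme, was lost without SK/EPI-siBCRP replicate 1 or 2 and without SK/EPI-siControl replicate 1 or 2, which left 1 fall.

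NADPH supply genes gave 3 rises and 2 falls of 6 (median 0.07), with IDH1 at 0.21, ME1, malic enzyme, at -0.33 and TALDO1 at -0.15. Of 9 heme and iron genes, 2 rose and 2 fell (median -0.00057). HMOX2, the constitutive heme oxygenase, rose from 14.3 to 15.1 FPKM to 17.5 to 18.3 FPKM (0.27) and BLVRB by 0.31, while the heme transporter SLC48A1 and the iron exporter SLC40A1 had log2 fold changes of -0.26 and -0.17. Detoxification targets gave 5 rises and 7 falls of 17 (median -0.0091). UGDH, which makes UDP-glucuronic acid, went from 7.17 to 7.68 FPKM to 2.39 to 2.83 FPKM (-1.25) and AKR1C2 from 2.63 to 3.32 FPKM to 1.431 to 1.497 FPKM (-0.69), while TRIM16L and CBR1 each rose by 0.30. The calls of AKR1C3, OSGIN1 and CYP4F11 were lost together without SK/EPI-siBCRP replicate 1 or 3 and without SK/EPI-siControl replicate 1 or 3, which left 4 falls. SOD2 rose by 0.26. In the ATF4 list 3 of 8 rose and 0 fell by limma (median 0.17), with 0 falls also at an unadjusted p under 0.05 and with voom. PSAT1, a serine synthesis enzyme, went from 19.5 to 20.6 FPKM in the controls to 29.4 to 31.9 FPKM after silencing (0.61), and SESN2 rose by 0.28.

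The genes whose pattern was most like that of NFE2L2 were sought over the 12 libraries by the Euclidean distance between log2(FPKM + 1) values centred within each table, among 15151 genes. The nearest were ZNF623 at a distance of 0.089, SETBP1 at 0.092 and GRIPAP1 at 0.113, where the median over all genes was 0.910. ZNF623 went from 4.19 to 6.91 FPKM between SK-BR-3 and SK/EPI and was at 5.49 FPKM in SK/EPI-siControl and 4.76 FPKM in SK/EPI-siBCRP. SETBP1 was near the floor, at 0.021 FPKM in SK-BR-3 and 0.536 FPKM in SK/EPI. Its ratio is far larger than that of NFE2L2, and the distance is small only on the log2(FPKM + 1) scale. The closest other member was SLC7A11, at a distance of 0.314 and rank 634, followed by KEAP1 at rank 2014 and GCLM at rank 2223. HMOX1 was the farthest of the 9, at a distance of 1.83 and rank 13504. These distances describe the same libraries as the comparisons and share their depth, so no p is given.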

How the data were processed

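RNA-seq was available for 12 libraries of poly-A RNA in 4 groups. FPKM (fragments per kilobase of exon and per unit of sequencing depth) were deposited by the authors in 2 tables, one for SK/EPI with SK-BR-3 and one for the transfected groups. The submitters' processing notes name HISAT2 2.0.5, featureCounts 1.5.0-p3, DESeq2 1.16.1 and hg38, while the strand setting of the counting is not given in the sources used here. The kit, as labelled, does not mark strand, so reads of a gene and of an antisense partner cannot be told apart. The tables hold no count columns and no fold changes. Reads were computed back with merged exon lengths of GENCODE 29, and 100% of values came out whole within 0.05 reads. Reads on genes were 15830381 to 19051182 in SK-BR-3, 17249081 to 18179410 in SK/EPI, 17538094 to 20346162 in SK/EPI-siBCRP and 17078952 to 20545811 in SK/EPI-siControl.

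Each table was tested alone with limma 3.58.1 (R 4.3.3, lmFit and eBayes with trend, two-sided) on log2(FPKM + 1), with the group as the only term. A gene was tested if 3 or more libraries reached 10 reads, scaled to the median depth, and its total was 15 or more. P-values were adjusted by Benjamini-Hochberg over all genes tested, with a threshold of 0.05. The test script was tested on simulated data. Alternatives were no filter, at least 1 FPKM in every library, a pseudocount of 0.1 FPKM, 3 rescalings, the replicate number as a block, leaving out each library, voom on recovered reads and stricter thresholds. From each pathway list the text names the called genes with the 2 largest rises and the 2 largest falls, except 1 that is not reported here. The members, the lists and the tests were chosen with earlier results of these data known. GPX1, with at most 4 reads per library, and ALDH3A1 were not tested. SOD2 has 2 identifiers, and ENSG00000112096, which had more reads, was used. The 2 overlap in position on the same strand and their shared exons were not computed, so the level of SOD2 is uncertain.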

Additional observations from a re-analysis of the deposited data

How the results depend on the processing

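In SK/EPI versus SK-BR-3 the 8 called members kept direction and call under all alternatives that only change the fit or the samples. When a log2 change of 1 or more in size was required on the log2(FPKM + 1) scale, 1 member, HMOX1, was called, 1 up and 0 down. SLC7A11 was at 0.76 on that scale and at 1.41 with a pseudocount of 0.1 FPKM. TXNRD1, not called, turned to 0.059 without the mitochondrial chromosome and to 0.080 with voom, and ranged from -0.024 to 0.020 when 1 library was left out. SLC7A11 could not be fitted with at least 1 FPKM in every library, since its SK-BR-3 values are lower. In SK/EPI-siBCRP versus SK/EPI-siControl the 2 members called, both down, became 1 (NFE2L2) with no filter, with median of ratios, with the replicate block and at an adjusted p under 0.01, and 0 when a log2 change of 1 or more in size was required. Leaving out 1 library gave 1 to 2. GCLM and SLC7A11, not called, turned to -0.028 and -0.022 with the same FPKM total, to -0.015 and -0.013 without the mitochondrial chromosome and to -0.0080 and -0.0077 with voom. When 1 library was left out they ranged from -0.013 to 0.024 and from -0.014 to 0.016, and TXNRD1 from -0.025 to 0.0058. NQO1 was called lower also without the mitochondrial chromosome (-0.064) and with voom (-0.058). The causes were not tested.

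Deviations of same-numbered libraries correlated at -0.048 to -0.0020 in the first table and 0.0092 to 0.055 in the second. For libraries with different numbers the correlations were -0.011 to 0.054 and -0.050 to 0.027. Values this small do not settle whether the libraries were paired. With the replicate block 11656 genes of the first table were called against 11854, and 5640 of the second against 6215, and HMOX1 was lost after silencing (limma adjusted p = 0.0655). Voom called 6800 genes up and 5328 down in the first table, and 3396 and 3647 in the second. None of the 66 and 44 called list genes turned sign under an alternative that tested it. Calls were lost, however, under alternatives that change the fit or the samples. At most 5 of the 59 (without SK/EPI replicate 2) and 8 of the 44 (with no filter) were lost. Depth limits SLC7A11 most, with 85 to 104 reads per SK-BR-3 library.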
